A study of Homo sapiens with 36 samples.

Results

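The regions described here were the promoter sites in a human renal cancer cell line at which peaks of tagged HIF-α proteins had the core of a hypoxia response element within 100 bp of their centre. The peak lists of 15 anti-V5 Cut&Run libraries from tagged lines were merged into regions wherever peaks overlapped, and regions with peaks from at least 2 lists were kept. The centre of a region was the median of the summits of its peaks. A region was a member when its centre lay within 1 kb of the transcription start site (TSS) of a protein-coding transcript (GENCODE 44, hg38) and when the 5-base core of a hypoxia response element (HRE), ACGTG or GCGTG on either strand, started and ended within 100 bp of the centre. Of 25350 merged regions, 7283 were promoter regions by the first criterion and 4468 met both, which was 17.6% of all regions and 61.3% of the promoter regions. The rule used the peaks and the sequence, and neither the peak strength nor the number of lists beyond 2.

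HIF is a dimer of an oxygen-regulated α subunit, HIF-1α or HIF-2α, and the constitutive HIF-1β. Both α subunits read the same short HRE through their basic helix-loop-helix and PAS domains (together called DBD below), and each carries a long disordered region (IDR) that holds its transactivation and degradation domains. The VHL ubiquitin ligase removes the α subunits when oxygen is present, and clear cell renal carcinomas that have lost VHL keep HIF-2α stable at normal oxygen. The HRE core shares its letters with the E-box CACGTG, which is read by MYC, USF and other helix-loop-helix factors, and it contains the CpG dinucleotide in which CpG-island promoters are rich.

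Cut&Run, in which an antibody-directed nuclease releases the DNA around a bound protein, was performed in 786-O, an established VHL-deficient clear cell renal carcinoma line with no functional HIF-1α. The 36 libraries came from 6 lines with 3 biological replicates each, and every line and replicate had an anti-V5 and a mouse IgG library. WT cells carried no tag. The HIF-2α KIN line was a single homozygous clone, A31, in which V5 and HaloTag were fused to the N-terminus of endogenous HIF-2α. In 4 further lines an L30 promoter weakly drove a stably integrated V5-HaloTag fusion of HIF-2α, of HIF-1α, or of a chimera, and these cells kept their own untagged HIF-2α. HIF-2α/1α joined the DBD of HIF-2α to the IDR of HIF-1α, and HIF-1α/2α joined the DBD of HIF-1α to the IDR of HIF-2α. The anti-V5 antibody therefore saw 5 tagged proteins, and the WT libraries gave its background. Each anti-V5 library had been called against the IgG library of its own line and replicate, so a fold enrichment below is a peak's signal over that IgG background at its summit.

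The sites that carried the strongest peaks are shown first, each as the 29 or 41 bases around the core nearest to the centre. Capitals mark the 5 bases of every core in the stretch on either strand (either core or its reverse complement, the palindrome being marked once, as its last 5 letters). The stretches are read from the hg38 genome, 5′ to 3′, on the strand on which that core reads ACGTG or GCGTG. The 12 members with peaks in all 15 tagged lists and the highest median percentile of fold enrichment (the percent of a list's peaks with a lower fold) were the following.

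GPI, chr19:34359446-34359474, plus strand: ccaCACGCaCACGCGTGcgcattaccccc
ERO1A, chr14:52695706-52695746, plus strand: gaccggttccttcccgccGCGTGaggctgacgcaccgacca
VKORC1, chr16:31094931-31094959, plus strand: agcgggtaagggACGTGcggaatcgcggc
PPP1R3C, chr10:91633309-91633349, minus strand: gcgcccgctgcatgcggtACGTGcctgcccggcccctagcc
MOB3A, chr19:2089233-2089273, minus strand: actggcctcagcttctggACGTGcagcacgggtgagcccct
GAPDH, chr12:6533540-6533580, minus strand: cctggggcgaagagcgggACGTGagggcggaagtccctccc
ENO1, chr1:8879249-8879289, plus strand: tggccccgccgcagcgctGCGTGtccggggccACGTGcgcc
PLOD2, chr3:146161381-146161409, minus strand: gccagaagcgctGCGTGagcctccacacg
SEC61G, chr7:54759443-54759483, minus strand: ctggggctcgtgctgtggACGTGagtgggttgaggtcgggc
CPOX, chr3:98593816-98593856, minus strand: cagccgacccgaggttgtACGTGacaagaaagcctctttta
KDM4B, chr19:4968814-4968854, plus strand: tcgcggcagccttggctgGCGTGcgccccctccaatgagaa
PPP1R8, chr1:27830784-27830812, plus strand: tccagtttcccgGCGTGcttagggcgcgc

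The next sites are those of list genes that the results below return to. PDK1, LDHA, BNIP3 and ANKRD37 are shown for their paired cores, CA9 and P4HB because their peaks divided the lines by the DBD, and EIF4E as an E-box gene at which the HRE core is part of CACGTG.

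PDK1, chr2:172556070-172556098, minus strand: ctgccgagtggtACGTGagggACGTGgcg
LDHA, chr11:18394459-18394499, plus strand: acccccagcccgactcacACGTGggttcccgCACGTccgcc
BNIP3, chr10:131982044-131982084, plus strand: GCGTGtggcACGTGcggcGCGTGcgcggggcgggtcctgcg
ANKRD37, chr4:185396662-185396702, plus strand: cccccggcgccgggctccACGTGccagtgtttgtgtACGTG
CA9, chr9:35673898-35673926, minus strand: tgtacgggctgtACGTGcattggaaacga
P4HB, chr17:81861099-81861139, plus strand: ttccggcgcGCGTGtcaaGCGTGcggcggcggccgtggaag
EIF4E, chr4:98929336-98929376, plus strand: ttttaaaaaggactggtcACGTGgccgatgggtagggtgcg

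The bases before the core differed among the strongest sites. PPP1R3C, CPOX, PDK1 and CA9 had T before ACGTG, which gives TACGTG, the form usually drawn as the HRE. VKORC1, MOB3A, GAPDH and SEC61G had G before ACGTG. At the ERO1A, PLOD2, KDM4B and PPP1R8 sites the core nearest to the centre was GCGTG. Of these, only PPP1R8 held GCGTG alone in its window. Outside the printed stretches, the window of PLOD2 also held TACGTG, that of KDM4B CACGTG, and that of ERO1A another ACGTG. In the stretches of PDK1, LDHA, BNIP3, ANKRD37 and P4HB a further core stood close beside the first.

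The members lay close to gene starts. Their median distance from centre to TSS was 116 bp (quartiles 42 and 245 bp), 2049 of them (45.9%) lay within 100 bp of a TSS, and 62.3% lay upstream of it. The 2815 promoter regions without a core in the window had a median distance of 129 bp. The 4468 centres fell outside transcripts in 38.4% of cases, in introns in 28.2%, in untranslated exons in 27.8% and in coding exons in 5.62%. The nearest genes were 4266 different ones, so few genes had more than 1 member. At 641 members (14.3%) the starts of at least 2 genes lay within 1 kb, against 12.5% of promoter regions without a core, and a region of that kind is named here by its nearest gene only.

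A 5-base core is common in such sequence, and its share has to be read against windows of the same length. Both strands were searched in windows of 201 bp, the overlapping letters of TACGTG and CACGTG being counted within ACGTG. A core was held by 61.3% of the windows at promoter centres, by 40.5% of the windows 400 bp to either side of the same centres, and by 42.9% of the windows at the starts of all 19996 protein-coding genes. ACGTG was held by 28.7%, 15.0% and 16.5% of these windows, TACGTG by 6.14%, 2.43% and 2.20%, CACGTG by 7.98%, 3.45% and 5.91%, and GCGTG by 45.1%, 30.2% and 32.6%. The excess at the centres was thus 2.53-fold over the flanks for TACGTG and 1.49-fold for GCGTG. The members were also rich in CpG, with a median of 19 CpG and 67.2% G+C per window, against 15 and 63.7% at promoter regions without a core and 4 and 51.2% at the 7192 regions away from promoters that held a core. Every core contains a CpG, so the difference from promoter regions without a core follows in part from the rule. Most members had a single core site (2580 members), 1226 had 2, and 662 had 3 or more, up to 12 at the start of PLD6.

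The cores did not sit at the summits. Around all promoter centres, core density 30 to 130 bp towards lower coordinates was 4.92 times that of the flank 300 to 500 bp away for TACGTG (363 cores), 3.29 times for CACGTG, 2.77 times for ACGTG after A or G, and 2.33 times for GCGTG. On the side of higher coordinates at the same distance the ratios were 0.949 (70 cores), 1.58, 0.971 and 1.18. The displacement was seen for TACGTG on either strand and over peaks of the whole genome. In the 15 tagged lists the median position of a TACGTG core within 250 bp of a summit was between -86.5 and -77 bp, on the side of lower coordinates. It was -86 to -74 bp for cores on the plus strand and -88 to -78.5 bp for cores on the minus strand. In WT the median was 1 bp over the 565 such cores of replicate 2, and 13 and -19 bp over the 13 and 41 cores of replicates 1 and 3. What shifts the deposited summits relative to the cores was not tested. When all centres were moved by the 80 bp measured at regions outside promoters, an alternative chosen after the data had been seen, 5103 regions met the rule (70.0% of 7287 promoter regions) and 3943 of the 4468 members (88.2%) were among them. The other 1160 were not members by the unmoved centres. The class of promoter regions without an HRE, used for comparison below, thus depends on the centres as well. The comparisons of libraries below that change with that move are given with both values. The kinds of core and the gene lists were read at the unmoved centres only.

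**Figure D1:**
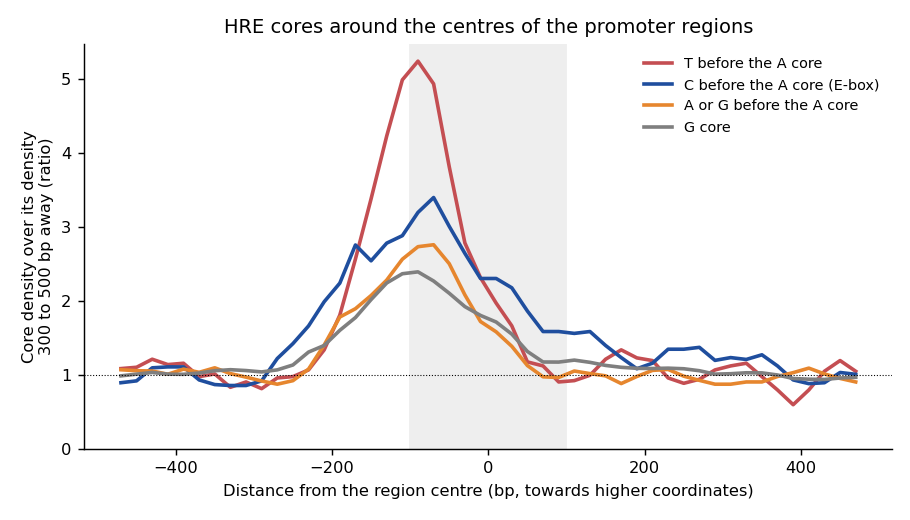
Density of HRE cores by distance from the centres of the 7283 promoter regions (x axis, bp, positive towards higher coordinates), divided by the density 300 to 500 bp away (y axis) and smoothed over 3 bins of 20 bp, with the 100 bp window of the rule in grey. The highest point is 5.24 for ACGTG after T at -90 bp, 3.40 for the E-box and 2.76 for ACGTG after A or G at -70 bp, and 2.39 for GCGTG at -90 bp.

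Within the libraries, list length came first. The tagged lists held 3984 to 20808 peaks and the WT lists 392, 9508 and 743. The background depth was inferred from the deposited fold enrichments and −log10 p, on the assumption of whole fragment counts over a Poisson background. This was possible for 17 of the 18 anti-V5 libraries, not for HIF-2α/1α replicate 2, and gave 0.241 to 0.536 fragments per base. Whether the values of that 1 library were scaled in another way was not tested. Replicate 2 gave the longest list in each of the 6 lines, and in WT it stood apart from the other 2 libraries by its length. Read counts are not held by these lists, so depth was not used to scale the values.

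The share of the 4468 members called in a library was lowest for endogenous and exogenous HIF-2α and highest for the proteins that carried the HIF-1α IDR. The 3 HIF-2α KIN libraries called 14.7%, 35.7% and 27.7% of the members, and the 3 HIF-2α libraries 24.9%, 68.3% and 22.9%. The 3 HIF-1α/2α libraries called 51.5%, 61.0% and 46.8%. The HIF-1α libraries called 67.4%, 76.2% and 66.8%, and the HIF-2α/1α libraries 69.9%, 80.0% and 52.9%. The WT libraries called 3, 363 and 46 members, which was 0.0671%, 8.12% and 1.03%. Since the regions were built from the tagged lists alone, the low WT shares follow in part from the rule and were given no test.

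The exogenous proteins were grouped by IDR. Those ending in the IDR of HIF-2α, which are HIF-1α/2α and full-length HIF-2α, called 45.9% ± 18.6 of the members (SD, n = 6). Those ending in the IDR of HIF-1α, which are HIF-2α/1α and full-length HIF-1α, called 68.9% ± 9.37 (SD, n = 6). At promoter regions without an HRE the same groups called 37.0% and 57.9%. The difference at the members of -23.0 points had p = 0.03 in a 2-sided exact permutation test and 0.078 after Benjamini-Hochberg adjustment over the 13 tests of this kind, so it did not pass. The groups overlapped, since HIF-2α replicate 2 (68.3%) and HIF-1α/2α replicate 2 (61.0%) lay above HIF-2α/1α replicate 3 (52.9%). When every list was shortened to its 3984 peaks of highest −log10 p, the length of the shortest tagged list, the groups no longer overlapped. The HIF-2α IDR libraries then called 16.6% to 18.9% of the members (17.6% ± 0.781, n = 6) and the HIF-1α IDR libraries 22.1% to 24.4% (23.0% ± 0.965, n = 6), a difference of -5.41 points with an unadjusted p = 0.005 in the exact permutation test. At promoter regions without an HRE the shares in the shortened lists were 10.1% and 12.5%. A member had to be called in at least 2 tagged lists, so lists that call more also admitted more of the members, and neither test is independent of the rule. For the DBD, the whole lists gave 53.1% ± 24.3 with that of HIF-2α and 61.6% ± 10.9 with that of HIF-1α (n = 6 each), a difference of -8.47 points with p = 0.325 in the exact permutation test (adjusted 0.469). These p-values measure the spread between replicate libraries of single stable lines.

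**Figure D2:**
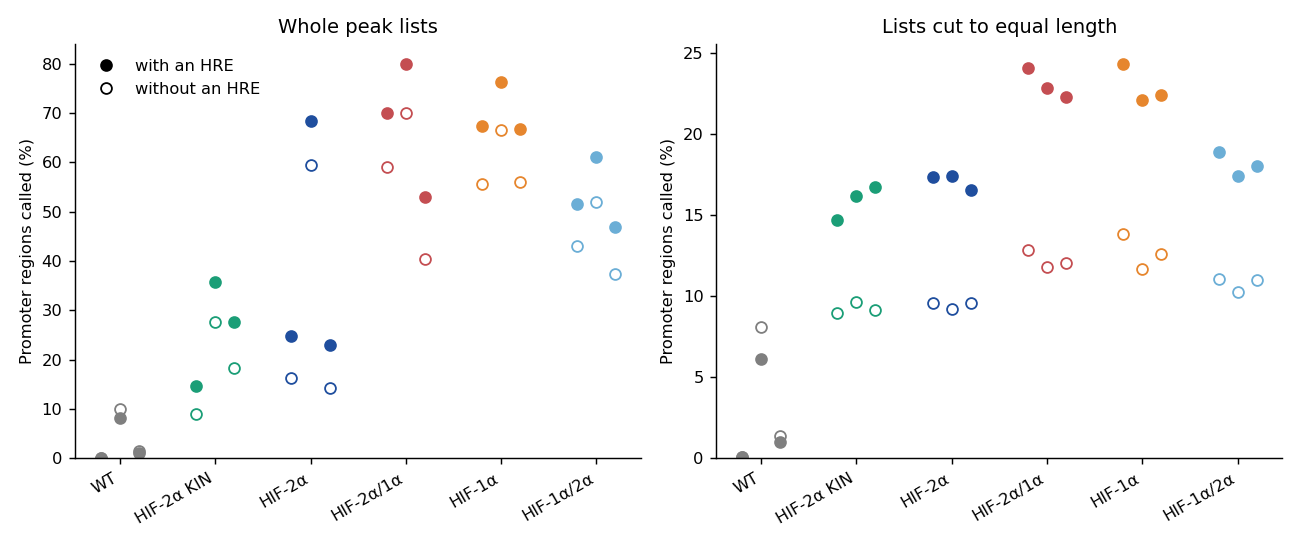
Percent of promoter regions called in each anti-V5 library (y axis) by line (x axis, 3 replicates side by side), with an HRE (filled, of 4468) and without (open, of 2815), in whole lists (left) and lists shortened to at most 3984 peaks (right). In every tagged library the filled point lies above the open one, and with shortened lists HIF-2α/1α and HIF-1α lie at 22.1% to 24.4%, above the 3 other tagged lines at 14.7% to 18.9%.

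Promoter regions with an HRE were called more often than promoter regions without one in all 15 tagged libraries and in none of the WT libraries. The gap between the 2 shares was 9.48 ± 1.64 points in the tagged libraries (5.74 to 12.4, n = 15) and -0.739 ± 0.985 points in WT (-1.86 to -0.0039, n = 3). The difference of 10.2 points had p = 0.00123, the smallest that this exact permutation test can give (adjusted 0.00797). As a ratio, the share with an HRE was 1.14 to 1.64 times the share without in tagged libraries and 0.743 to 0.945 times in WT. With the centres moved the difference was 14.4 points. The regions and their centres came from the tagged lists, and WT called few of them, which keeps a gap in points small in WT. This test is therefore not independent of the rule, and what the rule adds to the difference was not tested. In fold enrichment, by contrast, called members exceeded called promoter regions without an HRE by 0.20 ± 0.08 on the log2 scale in tagged libraries and 0.10 ± 0.13 in WT, and the difference of 0.10 had p = 0.118 in the exact permutation test (adjusted 0.191). With the centres moved that difference was 0.30 with an unadjusted exact permutation p = 0.00123.

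The gap in calls was narrower with the HIF-2α IDR (8.85 ± 0.395 points, 8.47 to 9.51, n = 6) than with the HIF-1α IDR (11.0 ± 1.02 points, 9.74 to 12.4, n = 6). The groups did not overlap, and the difference of -2.13 points had p = 0.005 in the exact permutation test (adjusted 0.0217). Within replicates 1, 2 and 3 it was -2.89, -0.947 and -2.56 points. Lists that call more also admitted more of the regions, so the test of this gap is not independent of the rule. A gap in points depends on how much a library calls at all, and the difference did not hold on every scale. As a log2 ratio of the 2 shares the sign turned (0.13, unadjusted exact permutation p = 0.195), the ratio being 1.32 ± 0.196 where the IDR came from HIF-2α, against 1.20 ± 0.0598 where it came from HIF-1α, and as a log2 odds ratio the difference was -0.09 (exact permutation p = 0.1). In lists of equal length the ratio was lower with the HIF-2α IDR (1.75 ± 0.0864 against 1.85 ± 0.0678, n = 6 each, exact permutation p = 0.015). These scales were added after the data had been seen. For the DBD the gaps were 9.93 ± 1.56 and 9.90 ± 1.22 points (exact permutation p = 0.965, adjusted 0.965). On the added scales the DBD difference was 0.13 as a log2 ratio (unadjusted exact permutation p = 0.22) and 0.12 as a log2 odds ratio (0.04), and in lists of equal length 0.0787 (0.03) and 0.085 (0.035).

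The members differed among themselves by the kind of core. TACGTG was held by 447 members (10.0%), CACGTG without TACGTG by 554 (12.4%), ACGTG after A or G alone by 1090 (24.4%), and GCGTG alone by 2377 (53.2%). Members with TACGTG were called in a median of 10 of the 15 tagged lists and 19.2% of them in all 15. For ACGTG after A or G these were 8 lists and 10.8%, for CACGTG 7 lists and 7.76%, for GCGTG alone 6 lists and 4.54%, and for promoter regions without a core 5 lists and 4.09%. The rank of a called member within its library went the same way. The median percentile of fold enrichment of TACGTG members was 62.5 to 78.6 over the 15 libraries, and it lay above that of each other kind in 15 of 15 libraries. That of GCGTG members was 42.8 to 60.6, close to the 44.9 to 56.7 of promoter regions without a core. CACGTG members, whose core is also an E-box, were at 47.6 to 69.5 and lay below ACGTG after A or G in 14 of 15 libraries. The number of cores had an order too. Members with 1 core site were called in all 15 lists in 5.70% of cases, those with 2 in 9.05% and those with 3 or more in 14.7%.

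Fold enrichment gave TACGTG above GCGTG in each tagged line. The median fold of called TACGTG members was highest in HIF-2α/1α at 12.9 ± 2.38 (SD over 3 libraries), then 11.0 ± 1.65 in HIF-1α, 10.7 ± 1.19 in HIF-1α/2α, 9.92 ± 1.44 in HIF-2α and 9.00 ± 1.29 in HIF-2α KIN. For GCGTG alone the same lines, in the same order, gave 8.57 ± 0.481, 8.25 ± 0.609, 7.73 ± 0.436, 7.07 ± 0.454 and 6.79 ± 0.249. HIF-2α/1α replicate 2, whose depth could not be inferred, gave 15.6 for TACGTG, and replicates 1 and 3 of that line gave 11.5. In WT the values were 7.20 ± 1.34 for TACGTG, from 2 libraries that called any such member, and 7.15 ± 1.14 for GCGTG alone. WT peaks were found at 5.59% of TACGTG members, 7.76% of CACGTG members, 9.36% of members with ACGTG after A or G, 8.75% of GCGTG members and 10.5% of promoter regions without a core.

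**Figure D3:**
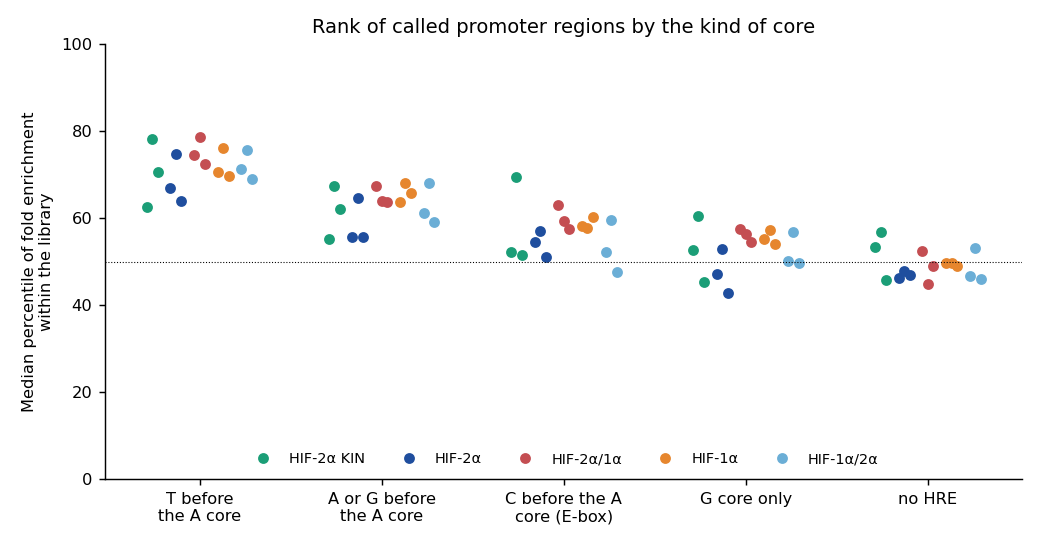
Median percentile of fold enrichment, among all peaks of the library, of the promoter regions called in that library (y axis), by the kind of core at the region (x axis), with 1 point per tagged library. The points of ACGTG after T lie between 62.5 and 78.6 and those of GCGTG alone between 42.8 and 60.6.

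The share of the called members that held ACGTG was higher with the tag. It was 53.0% ± 5.07 in the tagged libraries (48.1% to 64.7%, n = 15) and 28.0% ± 24.4 in WT (n = 3), with p = 0.00123 in the exact permutation test, the smallest it can give (adjusted 0.00797). The WT values were 0% of 3 members, 44.9% of 363 and 39.1% of 46, so that the first rests on 3 members, and without WT replicate 1 the difference fell from 25.0 to 11.0 points (exact permutation p = 0.0221). Without regions that had a peak in at least 2 WT lists it was 6.97 points (exact permutation p = 0.0662). The share was higher with the HIF-2α IDR (53.5% ± 4.16, n = 6) than with the HIF-1α IDR (49.1% ± 1.28, n = 6), by 4.44 points with p = 0.01 in the exact permutation test (adjusted 0.0325). In lists of equal length the shares were 62.1% ± 1.91 and 58.4% ± 2.04, a difference of 3.65 points (unadjusted exact permutation p = 0.005). For the DBD the difference was 3.09 points (exact permutation p = 0.065, adjusted 0.121). Regions came from the tagged lists and needed calls in at least 2 of them. The tests of the ACGTG share are therefore not independent of the rule, and what the rule adds to them was not tested. The distance from a library's own summit to the nearest core had a median of 42 to 50 bp in the tagged libraries. It differed by -0.333 bp between the IDRs (exact permutation p = 0.88, adjusted 0.953) and by 1.33 bp between the DBDs (exact permutation p = 0.365, adjusted 0.475). Both signs turned with the centres moved, to 0.75 bp and -2.75 bp. The rule asked for a core within 100 bp of the centre, which is the median of such summits. The size of these distances therefore follows in part from the rule, and the 2 tests are not independent of it.

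The calls of the kinds of core also shifted with the IDR to unequal extents. TACGTG members were called in 58.7% of cases by libraries with the HIF-2α IDR and 77.2% by those with the HIF-1α IDR, a ratio of 0.760. The ratio was 0.704 for ACGTG after A or G, 0.674 for CACGTG and 0.624 for GCGTG alone (41.2% against 66.1%), with 0.640 at promoter regions without a core. The loss of calls with the HIF-2α IDR was thus smallest at TACGTG and largest at GCGTG, and these ratios were given no test. A total of 169 members (3.78%) were called in all 6 libraries with the HIF-1α IDR and in 2 at most of the 6 with the HIF-2α IDR, against 2.95% of promoter regions without a core and 2.14% of other regions with one. No member had the reverse pattern, which 21 of all 25350 regions had. The lists with the HIF-1α IDR held 12371 to 20808 peaks and those with the HIF-2α IDR 5906 to 20651, and the part of list length in both counts was not tested.

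The 355 members called in all 15 tagged libraries were 7.95% of the members, against 4.09% of promoter regions without a core and 11.3% of other regions with one. Members called in at least 2 of 3 replicates numbered 3156 in HIF-1α, 3032 in HIF-2α/1α, 2291 in HIF-1α/2α, 1354 in HIF-2α and 1026 in HIF-2α KIN. These were 70.6%, 67.9%, 51.3%, 30.3% and 23.0% of the members. Over all regions the shares were 56.1%, 54.6%, 43.1%, 26.4% and 19.9%, with the same order of lines. In every tagged line 776 members (17.4%) were called so, against 13.8% of all regions. Of the 1026 HIF-2α KIN members, 511 (49.8%) were called in all 12 exogenous libraries, close to the 46.8% over all regions. ACGTG was held by 69.6% of the 355 and TACGTG by 24.2%, against 37.7% and 5.34% of the 562 members called in only 2 lists.

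Of the 12 highest of these 355, 3 were genes of glycolysis (GPI, GAPDH and ENO1), and the others were of varied function. GPI, which isomerises glucose 6-phosphate, had a median percentile of 99.4. Its fold enrichments were 143, 74.6 and 36.3 in HIF-1α/2α, 61.6, 65.9 and 86.4 for full-length HIF-1α, 90.7, 81.1 and 60.6 in HIF-2α/1α, 30.1, 103 and 54.2 in HIF-2α, and 40.6, 78.0 and 74.3 in HIF-2α KIN. The ranges of the 5 lines overlapped at this promoter, and no WT list had a peak there. ERO1A, the oxidase of the endoplasmic reticulum that drives disulfide bond formation, had the same percentile of 99.4, with folds of 18.0, 37.8 and 59.7 in HIF-2α KIN and 34.1, 131 and 27.2 in HIF-1α. PPP1R3C, a glycogen-targeting subunit of protein phosphatase 1, had a single core, TACGTG, and a median fold of 59.3. The median folds of VKORC1 (vitamin K recycling), GAPDH and ENO1 (both glycolysis), and PLOD2 (lysyl hydroxylase of collagen) were 55.3, 56.5, 47.3 and 56.5. Those of SEC61G (a subunit of the translocation channel), CPOX (haem synthesis), KDM4B (a histone demethylase of the 2-oxoglutarate-dependent class) and PPP1R8 (a nuclear regulator of protein phosphatase 1) were 51.1, 54.0, 49.4 and 42.0. MOB3A, with a median fold of 55.4, was the only one of the 12 with a WT peak, of 7.56-fold in WT replicate 2.

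**Figure D4:**
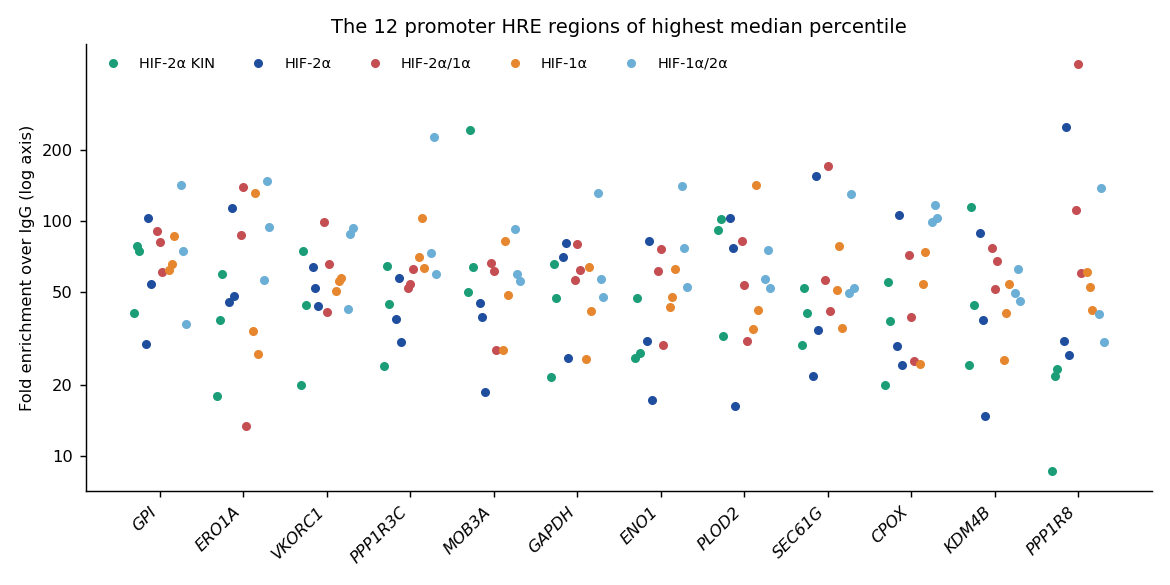
Fold enrichment over IgG of the 12 members of highest median percentile (x axis, named by the nearest gene) in each tagged library (y axis, log axis), with 1 point per library and colours for the lines. Replicates of a line spread widely, and at PPP1R8 the HIF-2α KIN libraries (8.62, 21.8 and 23.4) lie below all other libraries, which start at 26.9.

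Known HIF targets were read from 7 gene lists by function. A gene counted when a member lay within 1 kb of any of its starts, which held for 4887 of 19663 protein-coding genes (24.9%), with 396 (2.01%) at a member called in all 15 lists and a median percentile of 49.6 over members.

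Of 27 genes of glucose uptake and glycolysis, 19 had a member, 13 of them called in all 15 lists, and the list's median percentile was 94.3. Beside GPI, GAPDH and ENO1, the highest were PDK1 (median fold 39.3), the kinase that keeps pyruvate out of the mitochondria, PGM1 (33.1), which links glycogen and glycolysis, and LDHA (33.5), which reduces pyruvate to lactate. PDK1 had TACGTG with a further ACGTG in the printed stretch, and LDHA had the E-box form with a second ACGTG on the other strand. A further 7 genes of the list, SLC2A3, PFKP, TPI1, PGAM1, PKM, GBE1 and UGP2, had a promoter region whose window held no core, and PFKM had no promoter region.

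Genes of the oxygen-sensing machinery itself had few members. Only 3 of 14 had one, namely BHLHE40 and BHLHE41, transcriptional repressors induced by HIF (median folds 31.2 and 21.6, all 15 lists), and HIF1AN, the asparaginyl hydroxylase of HIF-α. The HIF1AN region, nearest to NDUFB8, was called in 3 lists, 2 of HIF-1α and 1 of HIF-1α/2α. For 9 others, EGLN1, EGLN2, EGLN3, VHL, CITED2, HIF1A, EPAS1, HIF3A and SIAH2, the promoter regions had no core within the window. This says only that these letters were not in the window of the unmoved centres. Whether a core lay just outside it was not tested.

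Genes of mitophagy and mitochondrial adaptation stood higher. Of 10 such genes 7 had a member and 4 were called in all 15 lists, with a median percentile of 92.9. FAM162A, a mitochondrial protein linked to apoptosis in hypoxia, had a median fold of 34.6 at a single GCGTG, and LONP1, the mitochondrial matrix protease, 26.7 at the E-box form. BNIP3, a receptor for mitophagy, had 5 cores and a median fold of 27.8. BNIP3L was at 26.2, and MXI1, a MAX-binding antagonist of MYC, at 14.7 in 14 lists. HIGD1A, called in 7 lists, was at 7.62.

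Secreted and pH-regulating genes had 4 members among 14 genes, and CA9 was the one that separated the lines. CA9, the cell-surface carbonic anhydrase widely used as a hypoxia marker, had 1 core, TACGTG, and a centre in a coding exon, 52 bp past the TSS. It was called in 3 of 3 HIF-1α libraries at 18.0-, 21.2- and 13.6-fold and in 3 of 3 HIF-1α/2α libraries at 12.1-, 21.0- and 14.1-fold. It was called in no HIF-2α and no HIF-2α/1α library, and in 1 HIF-2α KIN library at 7.06-fold. The calls at CA9 therefore followed the DBD of HIF-1α without overlap between the groups of exogenous libraries, an observation on 1 region picked for its gene and not tested, since a region without calls has no value in these lists. TGFA, a ligand of the EGF receptor, was called in 14 lists (median fold 14.3), ADM, the vasodilator peptide adrenomedullin, in 15 (7.89), and EDN1, the vasoconstrictor endothelin, in 8 (6.59). VEGFA, ANGPTL4, CA12 and PDGFB had promoter regions with no core in the window.

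Collagen-modifying enzymes had 5 members among 7 genes. Beside PLOD2, the procollagen hydroxylase subunits P4HB and P4HA2 had median folds of 19.0 and 12.9, the crosslinking oxidase LOX 9.74 with TACGTG in 9 lists, and PLOD1 7.05 in 7 lists. Of 8 histone demethylases and related oxygenases 6 had a member, 5 of them in all 15 lists, with a median percentile of 92.5. KDM4B led with 49.4, followed by KDM3A (30.8), KDM2B (26.9), KDM4C (18.3), JMJD6 (12.4) and KDM4A (10.4, 12 lists). Of 17 stress, growth and lipid genes 12 had a member, 6 in all 15 lists, with a median percentile of 88.6. HILPDA, a lipid droplet inhibitor of lipolysis, was at 36.3, ANKRD37 at 36.2, INSIG2, which holds back sterol synthesis, at 24.0, ZNF395 at 18.7 and NDRG1 at 19.5. CCND1, the G1 cyclin induced by HIF-2α in such tumours, had a member called in 6 lists at a median fold of 8.95.

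The 2 comparison lists had members of lower rank. Of 21 housekeeping genes regulated through E-boxes 14 had a member, none was called in all 15 lists, and the median percentile was 43.1. Among them NPM1 and FBL, of the nucleolus, were at 26.1 and 14.8, RCC1 at 8.46, NOP58 at 7.16, and EIF4E, the cap-binding factor, at 6.51 with a consensus E-box. Of 22 ribosomal protein genes 12 had a member, 1 of them in all 15 lists (RPL3, median fold 13.7), with a median percentile of 50.2. RPL18, nearest to SPHK2, was at 7.88, RPL23A at 7.81, RPS3 at 7.85 and RPL27 at 5.91. A member was thus found at 66.7% and 54.5% of the genes of the comparison lists and at 21.4% to 75% of those of the 7 HIF lists, whose median percentiles were 68.4 to 94.3. These list values were given no test.

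Peaks of WT cells at members were few. A WT peak was found at 378 members (8.46%), 363 of which were in WT replicate 2, and at 31 members (0.694%) in at least 2 WT lists. Over all regions these shares were 12.8% and 1.87%. In 3 of 3 WT lists it was found at SFT2D3 (7.90-, 8.70- and 9.98-fold), LETM1 (9.72, 36.2 and 10.5) and CLIP2 (8.44, 23.1 and 33.6). The tagged libraries gave median folds of 13.3, 11.3 and 8.30 there, so that at LETM1 the median tagged fold lay within the WT range and at CLIP2 below it. Regions specific to 1 line were rare among the members and elsewhere. Members called in 3 of 3 libraries of a line and no other tagged list numbered 9 for HIF-1α, 3 for HIF-2α/1α, 1 for HIF-1α/2α and 0 for HIF-2α and HIF-2α KIN, out of 55, 27, 12, 0 and 3 among all 25350 regions. The 3 strongest of them, SCPEP1 (12.5-, 5.60- and 10.3-fold), WDR20 (9.23, 14.9 and 9.26) and MYL2 (8.56, 4.01 and 7.75), were all of HIF-1α.

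Strength could be compared across lines at regions called in all 15 tagged libraries, where every library has a value. The log2 fold enrichments of 1720 such regions, centred on each library's median, were fitted by line in limma, and the 355 members among them are described. A median or a count over them is a description, since a region had to pass in every library to enter. Relative to all fitted regions, the members were lower with the HIF-2α IDR. Their median IDR difference (HIF-2α IDR minus HIF-1α IDR) was -0.23 and 67.6% were negative, whereas the median was 0.04 over all fitted regions, 0.12 at the 813 other regions with a core and -0.07 at the 115 promoter regions without one. The median centred log2 fold of the members was -0.16 ± 0.03 in HIF-2α KIN, -0.20 ± 0.13 in HIF-2α and -0.19 ± 0.02 in HIF-1α/2α, and it was 0.08 ± 0.06 in HIF-1α and 0.03 ± 0.08 in the HIF-2α/1α chimera (SD, n = 3 libraries each). At the 115 promoter regions without a core it was -0.15 ± 0.11, -0.32 ± 0.13 and -0.40 ± 0.01 in the first 3 lines. In the last 2 it was -0.06 ± 0.04 and -0.12 ± 0.12, so the higher means with the HIF-1α IDR were not particular to the members. In other regions with a core it was 0.12 ± 0.04, 0.15 ± 0.03 and 0.18 ± 0.02 in the first 3 lines and 0.09 ± 0.04 and 0.08 ± 0.04 in the last 2. At the members, then, the lines with the HIF-1α IDR were the higher ones. At promoter regions without a core they had the higher means, but those of HIF-2α KIN and HIF-2α/1α lay within 1 SD of each other. In other regions with a core the lines with the HIF-2α IDR had the higher means. There, those of HIF-2α KIN and the 2 HIF-1α IDR lines lay within 1 SD of each other. By kind of core the median IDR difference was -0.08 for TACGTG (86 members), -0.38 for CACGTG (43), -0.28 for ACGTG after A or G (118) and -0.24 for GCGTG alone (108). Without the centring the median of all fitted regions was -0.21, so the values are relative to the rest of each library.

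**Figure D5:**
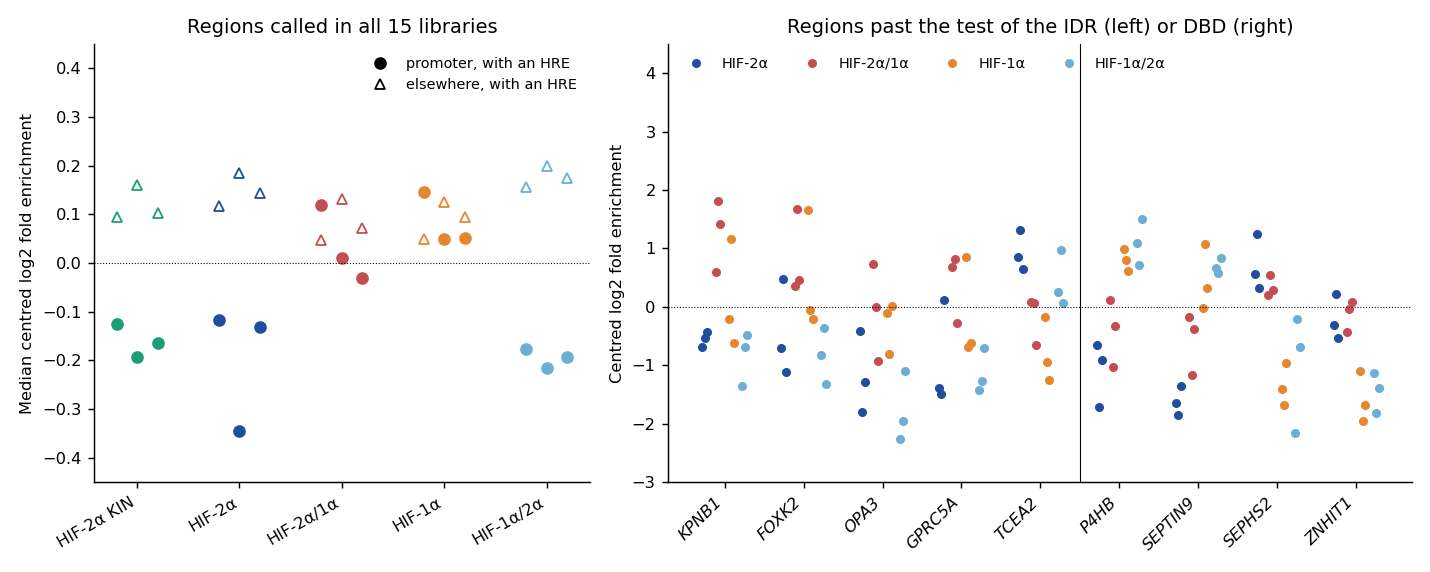
Centred log2 fold enrichment (y axes, 0 is the library's median over the 1720 fitted regions). Left: the median of the 355 members (filled circles) and of 813 other regions with an HRE (open triangles) in each tagged library, where HIF-2α/1α and HIF-1α members lie higher (means 0.03 and 0.08) than those of the 3 lines with the HIF-2α IDR (-0.16, -0.20 and -0.19). Right: 9 members past the test for the IDR or the DBD, with 1 point per library of the 4 exogenous lines.

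Few single members passed the test. In simulated data for the IDR comparison, 40% of regions changed by 1 on the log2 scale and 4% of those changed by 0.5 were recovered. For the IDR, 1 member was higher and 4 were lower with the HIF-2α IDR at a limma adjusted p under 0.05, against 1.28% higher and 0.581% lower among all 1720 regions tested. KPNB1, the nuclear import receptor, had folds of 7.54 to 22.5 in libraries of the HIF-2α IDR, whereas those of the HIF-1α IDR gave 13.3 to 116. Its fitted difference was -1.39 ± 0.34 (SE) on the log2 scale (limma adjusted p = 0.0156), and on the centred scale all 3 HIF-2α/1α libraries (0.601 to 1.805) lay above the HIF-2α (-0.688 to -0.423) and HIF-1α/2α (-1.35 to -0.477) libraries, while those of HIF-1α (-0.617 to 1.17) overlapped both. FOXK2, a forkhead transcription factor, had -1.29 (limma adjusted p = 0.0255), OPA3, of the mitochondria, -1.28 (0.0245), and GPRC5A, an orphan receptor of the plasma membrane, -1.15 (0.0493). TCEA2, of the TFIIS elongation factor family, was the member that was higher with the HIF-2α IDR, by 1.16 (0.0448). With the replicate number as a block 16 members passed, 1 higher and 15 lower, and over all regions 44 were higher and 29 lower in place of 22 and 10. The count of 5 did not stand when libraries were left out in turn. It was 0 without HIF-1α/2α replicate 1, 2 without HIF-2α replicate 1, HIF-2α replicate 2, HIF-2α/1α replicate 1 or HIF-1α/2α replicate 3, 3 without HIF-1α/2α replicate 2 and 10 without HIF-2α replicate 3.

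Members on both sides passed the test for the DBD. With the DBD of HIF-2α, 5 members were higher and 5 lower (limma, against 0.814% higher and 1.57% lower among all regions). P4HB, the protein disulfide isomerase that is also the β subunit of prolyl 4-hydroxylase, had 9.59-, 9.92- and 6.63-fold enrichment in HIF-2α and 29.0-, 16.3- and 17.0-fold in HIF-2α/1α. It had 33.6-, 46.4- and 31.2-fold in HIF-1α and 40.9-, 46.5- and 52.3-fold in HIF-1α/2α. The groups did not overlap, and the fitted difference was -1.70 ± 0.34 (limma adjusted p = 0.000253). The HIF-2α KIN values of 5.01, 8.77 and 19.0 also lay below every library with the HIF-1α DBD. SEPTIN9, a septin of the cytoskeleton, differed by -1.67, with folds of 4.81 to 23.7 with the HIF-2α DBD and 16.8 to 56.1 with the HIF-1α DBD. H4C16 (a histone H4), SMS (spermine synthase) and FOXD1 (a forkhead factor) differed by -1.32, -1.27 and -1.15. In the other direction, SEPHS2, the selenophosphate synthetase, differed by 1.71 (limma adjusted p = 0.000253). Its folds were 22.4, 76.7 and 15.7 in HIF-2α and 30.8, 48.5 and 26.0 in HIF-2α/1α, but 6.42, 8.30 and 10.5 in HIF-1α and 4.30, 24.6 and 11.4 in HIF-1α/2α. ZNHIT1, NIT2, TRAPPC2B and BTAF1 differed by 1.34, 1.21, 1.17 and 1.13. The core kinds of the members on the 2 sides were mixed. P4HB and SEPTIN9 held GCGTG alone, SEPHS2 a single ACGTG after G, and H4C16 and ZNHIT1 TACGTG. With the replicate block 14 members passed, and over all regions 24 were higher and 38 lower in place of 14 and 27. The member count with the block was lower than for the IDR, and the 2 counts were not tested against each other. The count of 10 became 5 without HIF-1α/2α replicate 1 and 6 without HIF-1α replicate 1.

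Whether the IDR difference depended on the DBD was tested as an interaction in limma. No member passed in either direction (0 against 0% of all regions in both), while 20 members had an unadjusted p under 0.05, as had 87 of all 1720 regions. The SE of an interaction was larger than that of the IDR difference, 0.67 against 0.34 at KPNB1.

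Between the full-length proteins, 8 members were higher in HIF-1α and 2 in HIF-2α (limma), against 1.22% and 1.51% of all regions. The median difference (HIF-1α minus HIF-2α) was 0.21 over the members and -0.04 over all regions. The largest were SEPTIN9 (2.08, limma adjusted p = 0.00228), P4HB (1.90, 0.00904), FOXD1 (1.82, 0.0164), CCDC107 (1.72, 0.0295), MROH1 (1.70, 0.0211) and SLC50A1 (1.67, 0.028). SEPHS2 (-2.06, 0.00346) and TCEA2 (-1.73, 0.0211) were higher in HIF-2α. SEPTIN9, P4HB, FOXD1 and SEPHS2 were among the DBD calls and TCEA2 among the IDR calls, the comparisons sharing the same libraries. The count of 10 became 2 without HIF-2α replicate 2, 3 without HIF-1α replicate 2 and 5 without HIF-1α replicate 1.

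Exogenous HIF-2α was also set against the knock-in. Here 0 members were higher and 2 lower in exogenous HIF-2α (limma, against 0.174% and 0.349% of all regions). An unadjusted limma p under 0.05 was found at 31 of the 355 members, and at 181 of all 1720 regions. ZNHIT1, a subunit of a chromatin remodelling complex, had 33.6-, 63.1- and 50.5-fold enrichment in HIF-2α KIN and 12.1-, 38.0- and 8.64-fold in HIF-2α, a fitted difference of -2.10 (limma adjusted p = 0.008). MOB3A had a fitted difference of -2.04 (limma adjusted p = 0.0126). At ZNHIT1 the other exogenous lines were lower still or alike, with 19.8 to 32.3 in HIF-2α/1α and 6.41 to 8.72 in the 2 lines with the HIF-1α DBD. Since the knock-in was 1 clone, clone and protein level cannot be told apart. The 2 calls became 0 without HIF-2α KIN replicate 2 or HIF-2α replicate 3, and 1 without HIF-2α KIN replicate 1 or HIF-2α replicate 2.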

How the data were processed

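Cut&Run peaks of 18 anti-V5 libraries were analysed. Per the study's methods, reads were aligned to hg38 with Bowtie2 2.3.4.1 (fragments of 10 to 700 bp), peaks were called per library with MACS2 (q of 0.01, maximum gap 400, duplicates kept) with the matching IgG library as control, and blacklisted regions were removed with BEDTools 2.28.0. SAMtools 1.8, FastQC and deepTools 3.5.1 are also named in the submitters' processing notes. The deposited narrowPeak lists give, as MACS2 wrote them for the authors, the fold enrichment at the summit over the local background (a ratio) and the −log10 p and −log10 q of the peak. The IgG libraries entered only through these calls.

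Overlapping tagged peaks on chromosomes 1 to 22, X and Y merged into 54907 regions, 25350 of them with at least 2 lists. A library called a region when 1 of its peaks overlapped it, and the highest fold of its peaks there was used. Sequences and motifs were read from the hg38 genome with pysam 0.24.0 and starts from GENCODE 44. Quantities per library were compared by 2-sided exact permutation of library labels, within the same DBD or IDR (400 relabellings, smallest p 0.0025) or of tagged and WT labels (816 relabellings), with Benjamini-Hochberg adjustment over 13 tests. Region strength was fitted with limma 3.58.1 in R 4.3.3 (lmFit, eBayes with trend, line means) on centred log2 fold enrichments, with p-values adjusted over all 1720 regions. That fit was tested on simulated data. Python 3.11.15, NumPy 2.4.6, pandas 2.3.3 and SciPy 1.17.1 were used. A quantity with depth behind it was limited to what the lists hold, since they carry no read counts.

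A region is named by its nearest protein-coding gene. Named were the 12 members of highest median percentile called in all 15 lists, up to 6 members per direction past an adjusted p of 0.05, and up to 3 with most WT lists or in 1 line only. Up to 6 genes per gene list were named, ordered by the number of tagged lists that called the member and then by percentile. Some genes of higher percentile but fewer calls, such as DKC1 and RPL8 of the comparison lists, were therefore not named above. Other genes named were chosen after their values were seen: those of a list without a member, PLD6, CCND1, and the further members past a threshold. The members, gene lists and tests were chosen with earlier results of these data known. Alternatives are given in the closing section, and where they were chosen after seeing the data this is said. A few genes of the fixed lists are counted but not reported here by name.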

Additional observations from a re-analysis of the deposited data

Results flagged for a closer look

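Among 20 groups of 6 libraries, 1 value stood apart from its group by Dixon's criterion, where chance gives about 1 in 20. HIF-2α/1α replicate 3 had ACGTG at 51.6% of its called members, while the nearest of the other 5 libraries with the HIF-1α IDR had 48.9%, a gap of 0.782 of the group's range. Its list, of 12371 peaks, was the shortest of the 6.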

How the results depend on the processing

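The gap in calls between promoter regions with and without an HRE stayed positive for tagged against WT libraries, with p under the threshold, in every alternative run, from 9.66 to 10.6 points with single libraries left out. The IDR differences of that gap (-2.38 to -1.84 with single libraries left out) and of the ACGTG share (3.30 to 5.09) kept direction and threshold too, apart from the added scales of the gap (log2 ratio 0.13, log2 odds ratio -0.0897). The ACGTG share of tagged against WT libraries was 6.97 without regions in at least 2 WT lists, and 11.0 to 33.4 with single libraries left out. The IDR difference in the share called was -27.5 to -18.4 points with single libraries left out, and its unadjusted p missed 0.05 without HIF-2α replicate 1 or 3 or any HIF-1α replicate.

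Values near 0 turned sign. The DBD difference of the gap was -0.0422 with −log10 q of at least 5, -0.0314 with a stricter overlap, -0.143 with a core within 50 bp, -0.199 without WT regions, and -0.480 to 0.405 with single libraries left out. On the added scales it was 0.12 (log2 odds ratio), and at equal list length 0.0787 (log2 ratio) and 0.085 (log2 odds ratio), with unadjusted p under 0.05. The gap in fold for tagged libraries was -0.049 at equal list length, 0.26 at −log10 q of at least 5, 0.13 with a core within 50 bp, 0.18 without WT regions, -0.097 with gene starts only, 0.30 with centres moved, and 0.029 to 0.16 with single libraries left out. For the IDR it was -0.013, -0.079, -0.073, -0.053 and -0.092 at equal length, higher q, without WT regions, gene starts only and moved centres, and -0.096 to -0.055 with single libraries left out. For the DBD it was 0.044 at equal length, -0.0017 within 50 bp, and -0.019 to 0.044 with single libraries left out. The DBD difference of the ACGTG share passed at equal length (3.09) and within 50 bp (2.303), and was 1.81 to 3.90 with single libraries left out. The distance to the core differed between IDRs by 0.417 bp at equal length, 1.00 bp within 50 bp, 0.75 bp with centres moved and -1.07 to 0.333 bp with single libraries left out, and between DBDs by -0.333 bp within 50 bp and -2.75 bp with centres moved. In each case the cause was not tested.

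The counts of members past limma's threshold moved with the fit. For the IDR 1 passed without centring (3 higher and 1 lower over all 1720 regions) and 3 with quantile normalization (15 and 9 over all regions). The count was 14 with regions called in at least 12 libraries, 11 with exogenous libraries only, and 0 to 10 with single libraries left out. For the DBD the counts were 3 without centring (1 and 9 over all regions), 19 in at least 12 libraries and 5 to 10 with single libraries left out. For HIF-1α minus HIF-2α they were 0 without centring (3 and 0 over all regions), 16 in at least 12 libraries, 17 with exogenous libraries and 2 to 11. For HIF-2α minus HIF-2α KIN they were 0 without centring (0 and 0 over all regions), 0 with quantile normalization (1 and 0), 1 in at least 12 libraries and 0 to 3. The regions called in at least 12 libraries, and those of the fit with exogenous libraries only, include all 1720 and can hold more members. How many members they held, and the counts over all their regions, are not given here. These counts and those with single libraries left out are therefore not read as results about the members. With the centres moved the fitted regions were the same 1720, of which 425 were members.

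Nothing in the labels says that a replicate number marks a shared batch, and not every same-numbered pair correlated above 0.1, so the numbers were not used as pairs. A shared component was seen all the same. Of 30 same-numbered pairs the correlations of deviations ran from -0.0196 to 0.177 (median 0.0671, 29 above 0), against -0.118 to 0.0614 (median -0.0369, 13 above 0) for 60 other pairs. With the replicate block the IDR count was 16, while the permutation tests kept their side of the threshold. No value of a named region changed sign in any alternative run. Depth limits the lists themselves: a member without a call has no value, so absence of a call was not read as absence of binding.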
